A study of Mus musculus with 4 samples.

Results

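IGF2BP3 binding was described over clusters of eCLIP-seq reads that lay in short 3′UTRs of mouse testis mRNAs. A cluster was taken into the set when its centre lay, on the same strand, in a 3′UTR shorter than 300 spliced bases, in the transcript chosen for each protein-coding gene (the longest CDS, then the longest transcript, then the lowest transcript identifier). The set held 1519 of the 337234 clusters listed for replicate 1 (0.450%) and 1310 of the 216354 listed for replicate 2 (0.605%). These clusters came from 1122 genes in replicate 1 and 1011 in replicate 2, with 748 genes in both and 1385 in either.

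The RNA came from whole testes, with germ cells and somatic cells together, of wild-type C57BL/6 mice aged 8 weeks. After UV crosslinking, RNA bound by IGF2BP3 was pulled down with an antibody to the protein to make the IP library. The SMInput library of each replicate came from the same lysate without the antibody and served as its background. There were 2 replicates and 4 samples in all, and each cluster was given as its replicate's IP against its SMInput, with no sample in which IGF2BP3 was missing. The library totals, found from the listed values, were 5133438 IP reads and 8706391 SMInput reads in replicate 1, and 4637612 IP reads and 16696122 SMInput reads in replicate 2. For each cluster the log2(fold change) compares the IP with the SMInput, and the −log10(P value) comes from the same comparison, with 400 listed for the strongest clusters. A −log10(P value) of 0 was listed for 35791 clusters in replicate 1 and 16261 in replicate 2. Only 27627 and 14262 clusters had a log2(fold change) of 0 or less, so some clusters above 0 were also listed at 0. A cluster was called significant when both values were at least 2.

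IGF2BP3 belongs to a family of RNA-binding proteins with KH domains and RNA recognition motifs that bind mRNAs, often in the 3′UTR, and affect their stability, storage and translation. The 3′UTR lies between the stop codon and the poly(A) tail and carries sites for proteins and small RNAs. In spermatids, many mRNAs are made early, kept untranslated and used later, when histones are replaced and the acrosome and flagellum are built.

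The clusters were checked against markers of the cells of the testis. All 7 spermatid markers had clusters on exons in both replicates, as did the pachytene spermatocyte markers Sycp1, Sycp3, Piwil1 and Hspa2. Among the spermatid markers, the largest number of SMInput reads in 1 cluster was 210 in replicate 1 and 425 in replicate 2, both on Prm2. The Leydig cell hormone gene Insl3 reached 319 and 521 SMInput reads in 1 cluster, and the Sertoli cell gene Clu reached 218 and 393. Other somatic markers ranged widely, with 87 and 117 for Cldn11, 36 and 38 for Acta2, 11 and 11 for Myh11, 3 and 8 for Star, 9 and 8 for Cyp11a1, 16 and 22 for Cyp17a1, 12 and 21 for Hsd3b1, 14 and 29 for Sox9 and 1 and 2 for Amh, while Wt1 had 390 in replicate 1 and 33 in replicate 2. The spermatogonial markers had 10 and 5 for Stra8, 8 and 14 for Kit, 5 and 7 for Zbtb16 and 36 and 38 for Uchl1. Among macrophage genes, Adgre1 stayed at 2 SMInput reads in each replicate and Csf1r had 3 and 4. Cd68, with 5 reads, and the Sertoli cell gene Rhox5, with 8, had clusters in replicate 1 and 0 in replicate 2. The blood markers also differed between replicates. The globin genes Hbb-bs and Hba-a1 had 1 cluster each in replicate 1, with 312 and 70 SMInput reads, and 0 in replicate 2, and Hbb-bt had 0 in both. The libraries therefore held germ cells and somatic cells. In such bulk libraries, fewer cells of a type and less RNA per cell cannot be told apart.

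Short 3′UTRs were common in the annotation. Of 21951 protein-coding genes, 5324 (24.3%) had a 3′UTR of 1 base to under 300 bases, 6408 one of 300 to under 1000 bases, 8997 one of 1000 bases or more, and 1222 had none annotated. A cluster in at least 1 replicate was found for 1385 genes with a short 3′UTR (26.0%), and 3939 had none. The median length was 151 bases over all short 3′UTRs and 186 bases over those with a cluster. In 840 of the 5324 genes another transcript had a 3′UTR of 300 bases or more, and 234 of the chosen short 3′UTRs ran over more than 1 exon. None of the 118 olfactory receptor genes and 20 vomeronasal receptor genes with a short 3′UTR had a cluster, a count of 0 in both replicates.

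In replicate 1, 232 of the 1519 clusters in short 3′UTRs were significant, or 15.3% (95% Wilson interval 13.6% to 17.2%), beside 4.92% of all clusters. In replicate 2, 298 of 1310 were significant, or 22.7% (20.6% to 25.1%), beside 13.2% of all clusters. Clusters in 3′UTRs of 300 to under 1000 bases were significant in 20.8% (19.8% to 21.8%) of 6306 and 33.2% (31.9% to 34.4%) of 5441. Those in 3′UTRs of 1000 bases or more were significant in 20.2% (19.7% to 20.7%) of 24262 and 36.7% (36.1% to 37.4%) of 19728. Within each replicate the share in short 3′UTRs lay above that of all clusters and below that of both longer classes, without overlap of the intervals. Where read numbers could be recovered, 55.9% and 50.7% of all clusters held 1 to 4 IP reads, beside 18.7% and 19.2% in short 3′UTRs. At 10 to 19 IP reads, 28.3% and 29.1% of clusters in short 3′UTRs were significant, beside 22.6% and 24.0% of all clusters. At 20 to 49 they were 31.4% and 32.1%, beside 26.0% and 30.3%, and at 50 or more 37.9% and 40.7%, beside 38.5% and 40.2%. The difference between the replicates varied with the read numbers, and its cause was not tested. At 5 to 9 IP reads, 5.44% of clusters in short 3′UTRs in replicate 1 and 23.2% in replicate 2 were significant. Of all clusters with 5 to 9 IP reads, 5.65% and 21.6% were. Among clusters with at least 10 reads, 27.2% in replicate 1 and 24.3% in replicate 2 were significant in short 3′UTRs, beside 41.1% and 42.9% in the longest. The intervals cover counting error only, and clusters that touch can share reads.

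The fold changes were also lower in short than in longer 3′UTRs. The median log2(fold change) of all clusters in short 3′UTRs was 1.35 in replicate 1 (quartiles 0.70 and 2.18) and 1.53 in replicate 2 (0.99 and 2.26). In the longest 3′UTRs the medians were 1.76 and 2.02, while over all clusters they were 1.5 and 1.53. No gain in the IP, a log2(fold change) of 0 or less, was listed for 126 clusters in short 3′UTRs in replicate 1 (8.29%) and 55 in replicate 2 (4.20%), beside 8.19% and 6.59% of all clusters and 3% and 1.16% of those in the longest 3′UTRs.

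Read numbers did not separate the classes in the same way. The median cluster in a short 3′UTR held 10 IP and 6 SMInput reads in replicate 1 and 10 IP and 12 SMInput reads in replicate 2, where read numbers could be recovered. In the longest 3′UTRs the medians were 8 and 4 reads in replicate 1, and 8 and 7 in replicate 2. Among clusters with 10 to 19 IP reads, 28.3% of 346 in short 3′UTRs and 40.3% of 5566 in the longest were significant in replicate 1. In replicate 2 the shares were 29.1% of 320 and 49.1% of 4879. With 50 IP reads or more they were 37.9% of 95 and 57.4% of 854 in replicate 1, and 40.7% of 91 and 63.8% of 741 in replicate 2. At like IP read numbers of 5 or more, therefore, the share was lower in short 3′UTRs. By SMInput reads the gap varied in replicate 1, with 20.1% in short and 20.6% in the longest 3′UTRs at 1 to 4 reads, 19.6% and 25.5% at 5 to 9, 12.2% and 19% at 10 to 19, 12.4% and 15.0% at 20 to 49, and 5.26% and 6.67% at 50 or more. In replicate 2 these shares were 35.1% and 42.6%, 32.1% and 43.7%, 17.8% and 32.1%, 17.5% and 25.9%, and 11.2% and 18.5%.

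The 2 thresholds were also counted apart. In short 3′UTRs 26.0% and 41.8% of clusters had a −log10(P value) of at least 2 with a log2(fold change) above 0, beside 7.45% and 18.8% of all clusters. A log2(fold change) of at least 2 was listed for 29.0% and 31.8%, beside 38.8% and 35.2% of all clusters. In replicate 1, 163 of 1519 clusters in short 3′UTRs had a −log10(P value) of at least 2 with a log2(fold change) above 0 but under 2, and in replicate 2 there were 249 of 1310, beside 8535 of 337234 and 12219 of 216354 over all clusters. Conversely, 209 and 119 clusters had a log2(fold change) of at least 2 with a −log10(P value) under 2, beside 114316 and 47663 over all clusters. Of the members, 3 clusters in replicate 2 and 0 in replicate 1 were listed at a −log10(P value) of 400.

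The share of significant clusters was also counted by length below the limit. It was 13.0% of 100 clusters for 3′UTRs of 50 to under 100 bases in replicate 1 and 19.1% of 89 in replicate 2. For 3′UTRs of 200 to under 250 bases it was 12.2% of 400 (9.39% to 15.8%) and 21.2% of 316 (17.1% to 26.0%). For 3′UTRs of 250 to under 300 bases it was 18.8% of 415 and 26.2% of 366. The Wilson intervals of the shortest and the longest of these were wide, at 7.76% to 21% and 15.3% to 22.8% in replicate 1, and 12.3% to 28.5% and 22.0% to 31.0% in replicate 2. Below 50 bases, 562 genes gave only 11 clusters in replicate 1 and 5 in replicate 2, with 0 significant. Just inside the limit, at 280 to under 300 bases, 14.6% of 185 and 25% of 148 clusters were significant, and just outside, at 300 to under 320 bases, 12.6% of 182 and 33.1% of 148.

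Genes at the limit itself held significant and other clusters on both sides. Just under it, at 298 bases, Snrpb, which encodes an Sm core protein of spliceosomal RNPs, had its top cluster at 2.76 in replicate 1 and 2.60 in replicate 2. Eif4ebp3, which encodes an inhibitor of the cap-binding protein eIF4E, had clusters at 2.50 and 2.67 in replicate 1 and at 3.85 and 4.10 in replicate 2. Pld3, also at 298 bases, did not reach a log2(fold change) of 2, with at most 1.76 and 1.47. Just over it, at 300 bases, the MHC class II gene H2-Aa had significant clusters at 2.54 and 3.89. The values of Pudp were 2.76 and 1.72, and those of 1700017N19Rik were at most 0.90 and 0.63.

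The replicates were compared cluster by cluster. In short 3′UTRs, 939 clusters of replicate 1 (61.8%) shared at least 1 base on the same strand with a cluster of replicate 2 in the same 3′UTR, and 902 of replicate 2 (68.9%) did so with replicate 1. These shares were 57.8% and 63.8% in 3′UTRs of 300 to under 1000 bases, and 40.7% and 48.3% in the longest. The median cluster was wider in short 3′UTRs, at 62 and 67 bases, than in the next class, at 55 and 59, and the longest, at 46 and 50. Wider clusters share a base more readily, and the shares were not adjusted for width. Over the 1047 overlapping pairs, Pearson's r of the log2(fold change) was 0.619 and Spearman's rho 0.566. These are across clusters, which share genes, reads and libraries and are not independent. Over pairs in 3′UTRs of 300 to under 1000 bases r was 0.632, and in the longest it was 0.612. Of the 176 significant clusters of replicate 1 with a partner, 124 (70.5%) met a significant cluster in replicate 2, while 122 of the 763 other clusters with a partner (16%) did. In 3′UTRs of 300 to under 1000 bases these shares were 75.8% and 26.3%, and in the longest 74.1% and 30.4%. Seen against all significant clusters in short 3′UTRs, 53.4% of those in replicate 1 and 40.6% of those in replicate 2 had a significant partner. In 3′UTRs of 300 to under 1000 bases it was 58.1% and 40.6%, and in the longest 42.1% and 27.6%.

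By gene, 185 genes had a significant cluster in a short 3′UTR in replicate 1, 244 in replicate 2 and 99 in both. The genes of each replicate were 16.5% and 24.1% of those with a cluster in a short 3′UTR, beside 33.0% and 49.5% for 3′UTRs of any length and 39.2% and 59.2% for the longest. A gene passed with 1 significant cluster, and such genes held 1.35 and 1.30 clusters each in short 3′UTRs but 4.79 and 4.20 in the longest. Per kilobase of 3′UTR of the genes with a cluster, 1.06 and 1.53 clusters were significant in short 3′UTRs and 0.369 and 0.586 in the longest. These 99 were 53.5% of the first list and 40.6% of the second, and 13.2% of the 748 genes with clusters in both replicates. In 91 of the 99 genes, significant clusters of both replicates overlapped, at 95 joined sites with a median width of 110 bases. In the other 8 genes, among them the outer dense fibre gene Odf3, the significant clusters of the replicates did not overlap. Another transcript with a 3′UTR of 300 bases or more was annotated for 11 of the 91 genes. The median 3′UTR length of the 99 genes was 218 bases.

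By their centres, clusters were spread over the 3′UTR and were few near its end. With each 3′UTR divided into 5 equal parts from the stop codon on, 24.9%, 24.4%, 25.1%, 21.1% and 4.41% of the centres lay in them in replicate 1. In replicate 2 the shares were 26%, 25%, 25.5%, 19.6% and 3.82%. Placed by the 5′ end instead, 49.2% and 52.8% lay in the part next to the stop codon and 1.51% and 0.916% in the last. The median centre lay 73 bases after the stop codon and 102 bases before the annotated end in replicate 1, and 68 and 106 bases in replicate 2. Only 2.37% of centres in both replicates lay within 30 bases of the annotated end. Median cluster widths were 62 and 67 bases, and only 28 and 25 clusters ran past this end. A cluster of such width that stops before the end has its centre more than 30 bases from it. By construction, therefore, few centres could lie near the end, and whether binding is rarer there was not tested. The stop codon itself was covered by 399 clusters (26.3%) in replicate 1 and 362 (27.6%) in replicate 2, which thus reached into the coding sequence. The share of significant clusters rose from 14% in the part next to the stop codon to 16.5% in part 4 in replicate 1, and from 19.4% to 26.8% in replicate 2, with overlapping intervals in both. In the last part it was 16.4% and 22.0%, from few clusters.

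A poly(A) signal, AATAAA or ATTAAA within the last 50 bases, was found in 66.6% (65.3% to 67.9%) of all 5324 short 3′UTRs. It was found in 73.4% (71.0% to 75.7%) of the 1385 with a cluster. Among the 99 genes significant in both replicates it was 80.8% (72.0% to 87.4%), so the last 2 intervals overlapped. Median lengths differed too, at 151, 186 and 218 bases, and 562 of the 5324 had under 50 bases. Whether length accounts for the shares was not tested. Centres lay before the poly(A) signal in 1133 of 1140 cases in replicate 1 and 983 of 985 in replicate 2. The signal was sought only in the last 50 bases, and the median cluster was 62 and 67 bases wide. By construction, therefore, few centres could lie past it. The median distance was 80.5 bases in replicate 1 and 79 bases in replicate 2. Significant clusters had almost the same distance, with medians of 82.5 and 79 bases.

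The 10 genes with the highest fold changes in both replicates, by the smaller value of an overlapping pair, were led by Adam20. This gene of the ADAM family of membrane metalloproteases has a 3′UTR of 166 bases in its exon 2 of 2, on the plus strand. In replicate 1 the cluster at chr8:40797176-40797183 held 45 IP reads and 1 SMInput read, for a log2(fold change) of 6.25. In replicate 2 the cluster at chr8:40797177-40797178 held 48 IP reads and 1 SMInput read, for a log2(fold change) of 7.43. The clusters next to them held 47 and 2 reads in replicate 1 and 49 and 1 in replicate 2, and touching clusters such as these can hold the same reads. A single SMInput read stands behind most of these values, so the size of the fold is loosely set, while the IP reads were many in both replicates.

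BC048671, a gene without a named function, followed. Its cluster at chr6:90305261-90305346, in the last of 5 exons, held 83 IP and 3 SMInput reads in replicate 1, and the one at chr6:90305289-90305376 held 57 and 10 in replicate 2. Their log2(fold change) values were 5.55 and 4.36. Pom121l12, a single-exon gene related by name to a nucleoporin, had clusters along its 3′UTR of 182 bases, 3 in replicate 1 and 4 in replicate 2, all of them significant. Its top pair held 43 IP and 4 SMInput reads in replicate 1 and 29 and 4 in replicate 2, for values of 4.19 and 4.71. Ankrd61, which encodes an ankyrin repeat protein, held 56 IP and 5 SMInput reads at chr5:143890758-143890826 in replicate 1, and 45 and 11 at chr5:143890767-143890869 in replicate 2. That gave 4.25 and 3.88. Higd2a, which encodes a small protein of respiratory supercomplex assembly, had 4 significant clusters in replicate 1 and 2 in replicate 2, with 47 IP and 5 SMInput reads behind its top value of 3.99 in replicate 1 and 38 and 10 behind 3.77 in replicate 2.

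The other genes of the 10 rested on fewer reads. Chd1l, which encodes a chromatin remodelling ATPase, had 15 IP reads and 1 SMInput read in replicate 1 and 26 and 6 in replicate 2, for 4.67 and 3.96. Prim2, the gene of the large DNA primase subunit, had 22 and 3 reads in replicate 1 and 28 and 6 in replicate 2, for 3.64 and 4.07. Tmem217 had 11 IP reads and 1 SMInput read in replicate 1 and 7 and 1 in replicate 2, for 4.22 and 4.66. Ruvbl1, which encodes an AAA+ ATPase of chromatin remodelling complexes, had 11 and 1 in replicate 1 but only 4 and 1 in replicate 2, for 4.22 and 3.85. The clone 1700007K13Rik had 9 and 1 in replicate 1 and 8 and 2 in replicate 2, for 3.93 and 3.85. The value of Ruvbl1 in replicate 2 sat close to the threshold on P, at a −log10(P value) of 2.04.

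The bases at the centre of the overlap of each of these pairs are given to show what the most enriched sites in short 3′UTRs look like. Each is 30 bases of mm10, 5′ to 3′ on the strand of the mRNA and wholly within the 3′UTR, and capitals mark a match to AAACC or to ACACA. The overlap was only 1 base for Higd2a, where the clusters met at their ends, and 2 bases for Adam20. Most of the bases given for these 2 genes therefore lie outside the overlap.
Adam20, chr8:40797163-40797192, plus strand: gcattaccacatatcatcttggcatatgta
BC048671, chr6:90305303-90305332, plus strand: ttagcctcattctctctgctccagacagct
Tmem217, chr17:29526052-29526081, minus strand: ctttagcctcaacccctagctatgtcttct
Pom121l12, chr11:14600245-14600274, plus strand: ggaatttgttgttgcttcttatttgcccag
Chd1l, chr3:97560840-97560869, minus strand: ttgttgctctggaagtgttaactgtgatcc
Ankrd61, chr5:143890782-143890811, minus strand: tcacttcctactgcaacgtacaaactactg
Ruvbl1, chr6:88497481-88497510, plus strand: ttatcAAACCtccatggtggtttggaagga
1700007K13Rik, chr2:28462048-28462077, minus strand: taccttgtgttctgcatttcACACAggaaa
Higd2a, chr13:54591005-54591034, plus strand: ggaagtggccgattttgtaactgatttgcg
Prim2, chr1:33453929-33453958, minus strand: ttgacagaatgggaaaggaagcattcctat
Only the sites of Ruvbl1 and 1700007K13Rik held such a match.

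The genes with the most IP reads in a significant cluster of both replicates, outside those 10, were named next. Meig1, which is needed for the manchette in spermiogenesis, had 216 IP and 46 SMInput reads in its most enriched cluster of replicate 1, at chr2:3409080-3409145, for a log2(fold change) of 2.99. In replicate 2 its cluster covered chr2:3409079-3409217 at 2.43, with the highest listed −log10(P value). Dnajb3, the single-exon gene of a DnaJ co-chaperone, had 192 IP and 45 SMInput reads at 2.86 in replicate 1, and clusters at 3.99 and 4.67 in replicate 2 that were also listed at 400. Those are the 3 listed at 400 among the clusters in short 3′UTRs. Gm17359, a predicted gene, had 152 IP and 50 SMInput reads at 2.37 in replicate 1 and 171 and 109 at 2.50 in replicate 2. Its 4 other clusters of replicate 1 held fewer reads and were higher, at 2.99 to 4.15.

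Mael and Ldhc completed this group. Mael encodes Maelstrom, a protein of the piRNA pathway of germ cells. It had 120 IP and 44 SMInput reads at 2.21 in replicate 1 and 128 and 91 at 2.34 in replicate 2, in a 3′UTR of 163 bases that another transcript extends to 347. Ldhc, the germ cell lactate dehydrogenase, had 119 IP and 39 SMInput reads at 2.37 in replicate 1, and 92 and 56 at 2.56 in the replicate 2 cluster that lay within it. Nearer the stop codon, a replicate 1 cluster had 169 and 85 reads and stayed at 1.75, where a replicate 2 cluster had 162 and 141 and passed at 2.05. All 5 genes had a significant cluster with at least 119 IP reads in each replicate.

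At the other end, some well-covered clusters were not enriched in either replicate. For clusters listed at a −log10(P value) of 0 only the ratio of reads is known, so their read numbers are the fewest possible. BC051142 had at least 98 IP and 223 SMInput reads in replicate 1 and 65 and 349 in replicate 2, for log2(fold change) values of −0.42 and −0.58. Pmfbp1, a gene needed to hold the sperm head to its tail, had at least 16 and 47 reads in replicate 1 and 13 and 63 in replicate 2, for −0.79 and −0.43. Fam71e2 was lowest in its 18-base cluster of replicate 1, at −1.38 with at least 7 and 31 reads, and at −1.93 in replicate 2 with at least 4 and 55 in a cluster of 3 bases. Another of its pairs was above 0 in both replicates, at 0.44 and 0.59. Enkur, the gene of a calmodulin-binding protein of the sperm flagellum, gave −0.30 and −0.58 in 1 pair, with another pair above 0 in both replicates, and Mapk15, which encodes an atypical MAP kinase, gave −0.79 and −0.14. Over all overlapping pairs in short 3′UTRs, 21 were listed at 0 or less on the log2 scale in both replicates. The 5 genes named here were chosen for low fold changes at 20 or more SMInput reads in both replicates. Their low ratio of IP to SMInput reads follows from that choice.

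Protamines and transition proteins replace the histones of spermatid chromatin. The 5 genes listed by these names, Prm1, Prm2, Prm3, Tnp1 and Tnp2, all had a short 3′UTR. Prm3 was listed by its name alone. Of the 5, 4 had clusters there in both replicates. They were only 9 clusters in each replicate, and 0 were significant, beside 15.3% and 22.7% of all clusters in short 3′UTRs. Prm1 held 162 IP and 155 SMInput reads in replicate 1, for 0.83, and 153 and 254 in replicate 2, for 1.12. Prm2, with a 3′UTR of 33 bases, held 207 and 158 reads in replicate 1, for 1.15, and 209 and 317 in replicate 2, for 1.25. Tnp1 was covered by 5 clusters in each replicate, at 0.86 to 1.65 in replicate 1 and 1.30 to 1.93 in replicate 2. Tnp2 reached 1.83 with 111 and 53 reads and 1.88 with 130 and 127 reads. Prm3 had 0 clusters in its 3′UTR. All listed values were above 0, and the −log10(P value) of the top cluster was well past 2 in each of the 4 genes, from 6.48 for Prm1 in replicate 1 to 28.1 for Tnp2 in replicate 2. These top clusters missed the threshold on the fold change only. A second Tnp2 cluster of replicate 1, at 0.41 with a −log10(P value) of 1.15, missed both.

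Genes of the acrosome, the vesicle at the sperm head that opens at fertilization, were counted next. Of 26 such genes listed, 21 had a short 3′UTR and 12 of these a cluster. In replicate 1, 8 of 17 clusters (47.1%) were significant and in replicate 2 8 of 18 (44.4%), beside 15.3% and 22.7% of all clusters in short 3′UTRs, but clusters of 1 gene were counted apart. Acrv1 and Lyzl6 together gave 6 of the 8 in replicate 1 and 5 of the 8 in replicate 2. Lyzl6, a lysozyme-like sperm protein gene, held 86 IP and 15 SMInput reads at 3.28 in replicate 1 and 64 and 13 at 4.15 in replicate 2. Acrv1, the gene of acrosomal vesicle protein SP-10, had 4 significant clusters in replicate 1, the most enriched at 2.51 with 47 and 14 reads, and 2 in replicate 2, the higher at 2.98 with 83 and 38 reads. Lyzl1 passed at 2.57 and 2.02, with 21 and 6 reads in replicate 1 and 9 and 8 in replicate 2. These were the 3 acrosome genes significant in both replicates, of 8 with clusters in both, beside 13.2% of all 748 such genes. The list is short.

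Among 22 genes of the sperm tail and its sheath, 19 had a short 3′UTR, 13 a cluster and 8 a cluster in both replicates. Of these 8, 3 had a significant one in both, beside 13.2% of all 748 such genes. Significant clusters were 5 of 15 in replicate 1 and 4 of 13 in replicate 2, beside 15.3% and 22.7%. The median log2(fold change) was lower than for all clusters in short 3′UTRs, at 1.10 beside 1.35 and 1.43 beside 1.53. Clusters at 0 or less were 2 of 15 and 0 of 13, beside 8.29% and 4.20%. Oaz3, the antizyme of haploid germ cells, held 67 IP and 24 SMInput reads at 2.24 in replicate 1 and 73 and 49 at 2.42 in replicate 2. Odf3l1 reached 3.97 with 37 and 4 reads in replicate 1 and 3.04 with 16 and 7 in replicate 2. Odf3 passed at 2.67 near the stop codon in replicate 1, where replicate 2 gave 1.43, and at 2.39 farther on in replicate 2. Of 29 Cfap genes, which act in cilia and flagella, 16 had a short 3′UTR and 10 a cluster in both replicates, of which 2 passed in both. Of their clusters, 3 of 13 and 3 of 11 were significant, and the median log2(fold change) was 0.52 in replicate 1, beside 1.35 for all clusters in short 3′UTRs, and 1.46 in replicate 2, beside 1.53. Cfap97 passed at 3.45 and 3.03 and Cfap206 at 2.25 and 2.04. The short 3′UTR of Cfap97, with 254 bases, is the shorter of those annotated, since another transcript has 2878.

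Of 29 Spata genes, 21 had a short 3′UTR and 8 a cluster in both replicates, of which 1 passed in both, beside 13.2% of all 748 such genes. Of their clusters 1 of 11 and 2 of 11 were significant, beside 15.3% and 22.7% of all clusters in short 3′UTRs. The medians were 0.64 and 1.33, beside 1.35 and 1.53 for all clusters in short 3′UTRs. Spata3 passed at 3.22 with 22 IP and 4 SMInput reads and at 3.95 with 30 and 7. Both clusters lay in exon 4 of 4. In replicate 2 a second cluster, in exon 3, reached 3.96 with 52 and 12 reads. The 3′UTR of its chosen transcript has 75 bases over 2 exons, and other transcripts reach 418. Of the Tex genes, 24 of 38 had a short 3′UTR and 5 had clusters in both replicates, of which 0 passed in both, beside 13.2% of all 748 such genes. Their clusters were significant in 0 of 8 cases in replicate 1 and 3 of 7 in replicate 2, beside 15.3% and 22.7% of all clusters in short 3′UTRs. Of 13 Ccdc genes with clusters in both replicates 0 passed in both, beside the same 13.2%. Of the Ccdc clusters, 4 of 27 (14.8%) and 3 of 20 were significant, beside 15.3% and 22.7%. The medians of the Ccdc clusters were 0.50 and 0.90, and 6 of 27 and 2 of 20 were listed at 0 or less, beside 8.29% and 4.20% of all clusters in short 3′UTRs.

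Nuclear genes of mitochondrial proteins made up a larger group. Of 86 genes of oxidative phosphorylation subunits, 64 had a short 3′UTR (74.4%), 38 of these a cluster and 26 a cluster in both replicates. In replicate 1, 8 of their 35 clusters (22.9%) were significant, and in replicate 2 11 clusters (27.5%), beside 15.3% and 22.7% of all clusters in short 3′UTRs. By gene, 3 of the 26 passed in both, beside 13.2%, and the median log2(fold change) was 1.12 in replicate 1, beside 1.35, and 1.66 in replicate 2, beside 1.53. Clusters at 0 or less were 5 of 35 and 1 of 40, beside 8.29% and 4.20%. Complex IV genes Cox6a1 and Cox8c and the complex I gene Ndufc2 passed in both. Cox6a1 held 70 IP and 23 SMInput reads at 2.37 in replicate 1 and 54 and 38 at 2.36 in replicate 2. Cox8c held 53 and 18 at 2.32 and 60 and 29 at 2.90, and Ndufc2 13 and 2 at 3.46 and 9 and 7 at 2.21. Of 33 mitochondrial ribosomal protein genes with a short 3′UTR, 14 had a cluster and 3 a cluster in both replicates. Of these 3, Mrpl4 passed in both, at 4.01 and 2.63, and 1 of 12 and 1 of 10 clusters of the list were significant, beside 15.3% and 22.7%.

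Other housekeeping groups varied. Cytoplasmic ribosomal protein genes had short 3′UTRs in 64 of 86 cases, and 8 of the 64 had a cluster. Of the 6 with clusters in both replicates 0 passed in both, beside 13.2% of all genes with clusters in both, and 0 of 6 clusters were significant in replicate 1 and 3 of 9 (33.3%) in replicate 2. Proteasome subunit genes had them in 28 of 48 cases, with clusters in 19 of the 28, in both replicates in 10, and 0 that passed in both. Of their clusters 1 of 14 and 1 of 16 were significant, beside 15.3% and 22.7% of all clusters in short 3′UTRs. In the small RNP group of Snrp and Lsm genes, 8 of 25 had a short 3′UTR and 4 of them a cluster, with 3 of 6 clusters significant in replicate 1 and 3 of 5 in replicate 2, beside the same 15.3% and 22.7%. Snrpb passed at 2.76 with 24 IP and 6 SMInput reads and at 2.60 with 27 and 16. Snrpa1 passed at 2.93 with 9 and 2 reads and at 2.43 with 6 and 4. The beta-tubulin gene Tubb4b passed at 2.67 with 60 and 16 reads and at 2.03 with 34 and 30.

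Histone genes had short 3′UTRs in 45 of 102 cases, with a cluster in 7. Those were only 5 clusters in replicate 1 and 2 in replicate 2, and 0 were significant, beside 15.3% and 22.7% of all clusters in short 3′UTRs. Of 49 Zfp genes with a short 3′UTR, 6 had a cluster and 1 a significant one, in replicate 2 alone. Their clusters were significant in 0 of 1 and 1 of 5 cases, beside 15.3% and 22.7%. Among membrane protein genes named Tmem, 41 of 242 had a short 3′UTR, and Tmem217 and Tmem120a passed in both replicates, the latter at 3.08 with 10 and 2 reads and at 2.38 with 13 and 9. These 2 were among 7 Tmem genes with clusters in both replicates, beside 13.2% of all such genes. In replicate 2, 9 of 12 Tmem clusters were significant, beside 22.7%, and in replicate 1 it was 3 of 15, beside 15.3%. Of the testis clones whose names begin like that of 1700007K13Rik, 68 of 103 had a short 3′UTR and 40 a cluster. Significant clusters were 10 of 40 and 12 of 38 (31.6%), beside 15.3% and 22.7%, and 2 of the 22 with clusters in both replicates passed in both, beside 13.2%. Besides that clone, 1700017D01Rik passed, with 33 IP and 7 SMInput reads in replicate 1 and at 2.81 with 35 and 18 in replicate 2.

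Somatic cell mRNAs were also found in the set. Of 6 Leydig and Sertoli cell marker genes with a short 3′UTR, 4 had a cluster and 3 a cluster in both replicates. Significant clusters were 1 of 7 and 3 of 7, beside 15.3% and 22.7%, and 1 gene passed in both. This gene, Inha, encodes inhibin alpha and passed at 2.15 with 21 and 8 reads and at 2.96 with 13 and 6. Whether the IP reads on these mRNAs came from IGF2BP3 in somatic cells was not tested. The 5 blood and macrophage genes with a short 3′UTR had 0 clusters there.

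The coding sequences of the same mRNAs were then compared. Of 927 CDS clusters in replicate 1 on the 99 genes significant in both replicates in the short 3′UTR, 18.1% (15.8% to 20.7%) were significant, beside 5.09% of 11607 on the other genes with a cluster in a short 3′UTR. In replicate 2 the shares were 22.4% (19.8% to 25.3%) of 884 and 6.85% of 10096. More than 300 bases away from the stop codon in the genome, they were 15.8% and 4.86% in replicate 1 and 20.4% and 6.52% in replicate 2. The genes were chosen by the same comparison of IP and SMInput, so these shares are a description. A significant CDS cluster was present in both replicates for 41 of the 99 genes, in 1 replicate for 29 and in neither for 29. Over all genes with a short 3′UTR, 6.05% of 21411 and 8.55% of 18086 CDS clusters were significant, against 5.02% and 7.86% for genes with 3′UTRs of 1000 bases or more. The lower share of significant clusters in short 3′UTRs was thus not seen in the coding sequences of the same class of genes.

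Sequence around the clusters was described in 100-base windows along the mRNA strand, centred on the replicate 1 cluster of each pair and so reaching in part beyond the 3′UTR. The 124 windows of clusters significant in both replicates had a median GC content of 46%, beside 50% for the 653 significant in neither, 45% for 2836 windows of clusters significant in both in longer 3′UTRs and 47% for all 5146 windows of short 3′UTRs. AAACC stood in 15.3% (10% to 22.7%) of the 124 windows, 7.20% (5.46% to 9.44%) of those significant in neither and 9.42% of all windows. GGAC, the core of a common m6A context, stood in 29.8% (22.5% to 38.4%), 32.3% (28.8% to 36.0%) and 30.5%. GGACT, which contains it, stood in 12.9%, 11.8% and 11.4%, and TGGAC, which also contains it, in 12.9%, 10.9% and 11.9%.

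GAACA stood in 12.1% of the 124 windows, 8.42% of those significant in neither and 10.2% of all windows. CATCA stood in 13.7%, 9.34% and 11%, and ACACA in 12.9%, 10.6% and 11.1%. TTTTT stood in 16.1%, 19.9% and 18.8%, beside 26.1% in the longer 3′UTRs, and TTTTTT, a longer form of it, in 8.87%, 9.95% and 6.96%. The poly(A) signals AATAAA and ATTAAA stood in 16.1% and 7.26% of the 124 windows, 14% and 5.48% of all windows of short 3′UTRs and 4.23% and 3.60% of the windows in longer 3′UTRs. TGTAAATA was found in 2 of the 124 windows and TATTTAT in 4. For AAACC alone the intervals of the windows significant in both and in neither did not overlap, by a small margin and among 13 sequences counted. With 1 window per gene they overlapped, at 9.39% to 24.2% and 5.06% to 9.47%, as they did in windows of 50 bases, at 3.87% to 13.2% and 1.63% to 4.13%. In the 19 windows at or below 0 in both replicates, AAACC was found in 1 and GGAC in 7.

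By chromosome, 300 of the short 3′UTRs lay on the X chromosome, with a cluster in 28 (9.33%), and 132 on the Y chromosome, with a cluster in 0. On the autosomes 1357 of 4892 (27.7%) had a cluster. Of the 9 genes on the X chromosome with clusters in both replicates 0 were significant in both, beside 13.2% of all 748 such genes. Of the 28 with a cluster in either replicate, 1 was significant in replicate 1 and 5 in replicate 2. On the autosomes, 184 and 239 of the 1357 with a cluster in either replicate were significant in replicates 1 and 2.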

How the data were processed

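The data were eCLIP-seq clusters of 2 replicates of mouse testis, each an IGF2BP3 IP against the SMInput of the same number. The authors trimmed adapters, aligned reads to mm10 and counted IP and SMInput reads in called clusters. The submitters' processing notes name cutadapt, Bowtie2 and STAR. Each deposited −log10 (p-value) is the authors' comparison of IP with SMInput in 1 cluster, from 0 to 400. Some clusters listed at 0 had a log2(fold change) above 0. Each deposited log2 (fold change) sets IP reads against SMInput reads after scaling by library. Both thresholds of 2 follow the study's methods.

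Clusters were placed on basic transcripts of GENCODE release M21, with the stop codon kept out of the 3′UTR, using Python 3.11.15, numpy 2.4.6, pandas 2.3.3 and SciPy 1.17.1. Whole read numbers and library totals were recovered from the listed values, with Fisher's exact test where an observed or expected number was under 5, and elsewhere a Yates-corrected chi-square test. A single solution was found for 98.9% of the clusters between 0 and 400 in either replicate, and the procedure was tested on simulated data. The median cluster in a short 3′UTR rested on 10 IP reads in each replicate, so its fold change is coarse. Bases came from the GRCm38 assembly. Shares have 95% Wilson intervals, and no test over samples or clusters was made.

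The members and the gene lists were chosen with earlier results of these data known. The genes named were of 5 kinds. They were the 10 with the highest overlapping significant pairs by the smaller log2(fold change), the 5 others with the most IP reads and the 5 lowest pairs with at least 20 SMInput reads in both replicates. To these came up to 4 per gene list with all protamine and transition protein genes, and 3 on each side of 300 bases. Alternatives were tried for the thresholds, read minimum, length limit, placement, transcripts, overlap, windows and each replicate alone. The classes by read number and by length, the coding sequences, the chromosomes, the poly(A) signals and the windows of clusters significant in neither replicate were added after the data had been seen.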

Additional observations from a re-analysis of the deposited data

How the results depend on the processing

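The number of significant clusters depended on the thresholds, by construction. With both raised to 3, 4.41% and 5.50% of the clusters in short 3′UTRs were significant in replicates 1 and 2, and 19 genes in both. Of all clusters 1.18% and 2.42% then passed, and of those in the longest 3′UTRs 5.89% and 10.3%. With a log2(fold change) of 1 or more the shares in short 3′UTRs were 24.9% and 40.5%, with 189 genes. They were 7.24% and 18.4% of all clusters and 27.9% and 49.4% in the longest. With the threshold on P alone the shares were 26.0% and 41.8%, with 198 genes, beside 7.45% and 18.8% of all clusters and 28.2% and 49.9% in the longest. With at least 10 reads the share in replicate 1 was 27.2%, the median log2(fold change) in replicate 2 was 1.33, and over such pairs r was 0.705 and rho 0.617. The cause was not tested. The genes significant in both replicates numbered 41 for 3′UTRs under 200 bases and 222 for those under 500. With either replicate left out, 185 to 244 genes were significant in the other.

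Windows of 50 bases hold fewer matches by construction. AATAAA was then in 2.42% of the windows significant in both replicates, ATTAAA in 0.806%, GGAC in 18.5%, GGACT in 8.06%, and TGGAC in 6.45%. GAACA was in 6.45% and ACACA in 6.45%. AAACC was in 7.26%, TTTTT in 9.68%, TTTTTT in 4.84% and TATTTAT in 0.806%. With 1 window per gene TGTAAATA was in 0. Placed by the 5′ end in place of the centre, 49.2% and 52.8% of clusters lay in the part next to the stop codon, and 1.51% and 0.916% in the last part. Among the other values tried, the genes significant in both replicates numbered 74 with the whole cluster inside the 3′UTR and 121 with at least 1 base in it, beside 99. In 50-base windows CATCA was in 8.87% and TGTAAATA in 0.806%, beside 13.7% and 1.61%.

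No paired analysis was possible because the replicates list no common set of clusters over which to block by replicate. A fit over the overlapping clusters alone, with the replicate as a block, was not made. Each listed value is already the contrast of an IP with the SMInput of the same number, in clusters called apart in each replicate, and is given per replicate. There were 2 replicates, the same lysate gave IP and SMInput, and no sample lacked IGF2BP3, so reads from other sources in the IP were not measured. Clusters are not replicates, and touching clusters share reads. Read numbers are recovered ones. The 3′UTRs are those annotated, not those measured in testis, and some genes have longer ones in other transcripts. Whole testes mix cell types.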
